A study of Homo sapiens with 18 samples.

Results

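The 30 genes described here encode nuclear receptors outside the retinoid X receptors and their best-known partners: the steroid receptors and their orphan relatives, the REV-ERB and ROR receptors of the circadian clock, the bile acid and xenobiotic receptors, the HNF4 and COUP-TF families, and the remaining orphan receptors. They were found by symbol in the gene abundance tables of 18 libraries that list 60675 gene IDs, and all 30 were present. The cells were U87, a human glioblastoma line long kept in culture, exposed for 24 h to A34, A41, A80, A98 or bexarotene at 100 nM or to the ethanol vehicle, with 3 libraries per group. All groups were the same line with no genetic modification, and A34, A41, A80 and A98 are known here only by their codes. Bexarotene is a rexinoid in clinical use, and it stood beside ethanol as a comparator. Whether the 3 libraries per treatment are separate cultures is not stated in the labels. The p-values therefore rest on a spread between libraries that may be technical.

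Nuclear receptors are transcription factors, many of which are switched by a small lipophilic ligand. Rexinoids are ligands of the retinoid X receptor, which pairs on DNA with several of the receptors below, including FXR, PXR and CAR. The steroid receptors bind DNA as homodimers without it. REV-ERB and ROR receptors bind as monomers or homodimers to the same class of response element and act in opposite directions on clock genes. Several members are known mainly from liver, gonad, adrenal or retina, while the glucocorticoid receptor is found in most cell types.

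Levels are given as scaled TPM, which is TPM, an abundance share per transcript length, divided by 1 factor per library. The libraries rested on 1.31 to 3.89 gigabases of aligned sequence. Ribosomal RNA took 56.1% of TPM in A41 replicate 2, 44.9% in bexarotene replicate 1 and 35.5% in ethanol replicate 2, against 0.362% to 4.43% in the other 15. The scaling was made for this. The A41 values of NR1D2 and NRP2, and the count of receptor genes called, are also given without those 3 libraries. VIM and CD44, markers of mesenchymal glioma, averaged 4058 and 1015 scaled TPM, and the astrocyte genes GJA1 and CLU 69.2 and 199. GFAP, the classical astrocyte marker, averaged 0.788, S100B was above 0 in 1 library, and the neural stem cell marker SOX2 averaged 0.0152. These genes do not stand for all such markers. Of 12 NR2E1 and neural stem cell genes, 7 reached 1 TPM in at least 3 libraries. PTPRC, CDH5, CDH1 and MOG, markers of leukocytes, endothelium, epithelium and oligodendrocytes, averaged between 0.000626 and 0.0644.

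Of the 30 receptor genes, 14 reached 1 TPM in at least 3 libraries and were tested (46.7%), against 30.1% of all gene IDs and 61.8% of protein-coding genes. Those 14 were NR3C1, NR2F1, NR1D2, NR2C2, ESRRA, NR1D1, NR2F2, RORA, NR2F6, NR0B1, NR2C1, NR6A1, NR4A3 and HNF4G in falling order of mean level. Of them, 11 were at 1 TPM or more in every library. NR6A1 passed with 14 libraries and NR4A3 and HNF4G with 4 each. The levels fell into a step on this scale: 9 genes averaged between 12.8 and 38.3 scaled TPM, and the next, NR0B1, averaged 4.09. On the level from coverage described below, RORA and NR2C2 did not keep to that step. RORA was at 0.359 and NR2C2 at 1.94 there, against 1.56 for NR0B1.

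**Figure D1:**
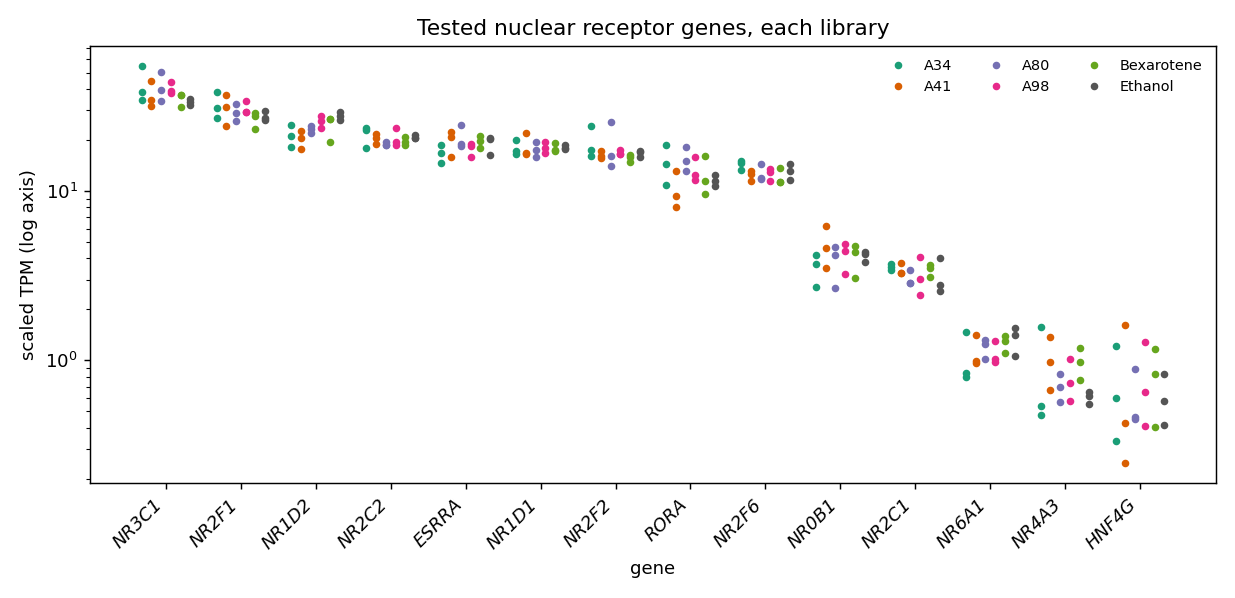
Scaled TPM (log axis) of the 14 tested receptor genes, in falling order of mean, with 1 point per library and the 6 treatments side by side in a fixed order. NR3C1 is highest, with libraries from 31.4 to 54.9, and a gap separates NR2F6, at 12.8 on average, from NR0B1, at 4.09.

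None of the 14 was called in any comparison with ethanol. By limma's moderated test with Benjamini-Hochberg adjustment over 18269 genes, 0 of 14 passed an adjusted p of 0.05 with A34, where 0.0821% of all genes tested were called. The same count of 0 held with A41 (0.755% of all genes), A80 (0.0438%), A98 (0.0328%), bexarotene (0.0547%) and the mean of the 5 rexinoids (0.203%). The count of 0 is near these background shares. At an unadjusted p below 0.05 the count was 1 of 14 with A34, A41 and the mean of the 5, NR1D2 each time, and 0 with A80, A98 and bexarotene, against 10.7%, 10.4% and 10.3% of all genes in the first 3 and 9.41%, 6.63% and 5.75% in the others. The F test for any difference among the 6 groups called 0 of 14, against 0.192% of all genes, and NR1D2 alone had an unadjusted p below 0.05.

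The intervals show what size of difference these libraries could hold on the log2(scaled TPM + 1) scale. The added 1 shrinks the differences of genes near 1 TPM. The intervals of NR4A3, HNF4G and NR6A1 therefore do not bound their fold changes in TPM. For NR4A3 with A41 the estimate was 0.30, against 0.72 for the log2 ratio of the mean scaled TPM. Over the 14 genes and the 5 rexinoids, the 95% intervals of the log2 fold change against ethanol ran between -0.70, the lower end for NR1D2 with A41, and 0.84, the upper end for RORA with A80. For the mean of the 5 rexinoids the estimates ran between -0.27, for NR1D2, and 0.20, for NR3C1. An adjusted p above the threshold does not show that a gene did not differ.

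**Figure D2:**
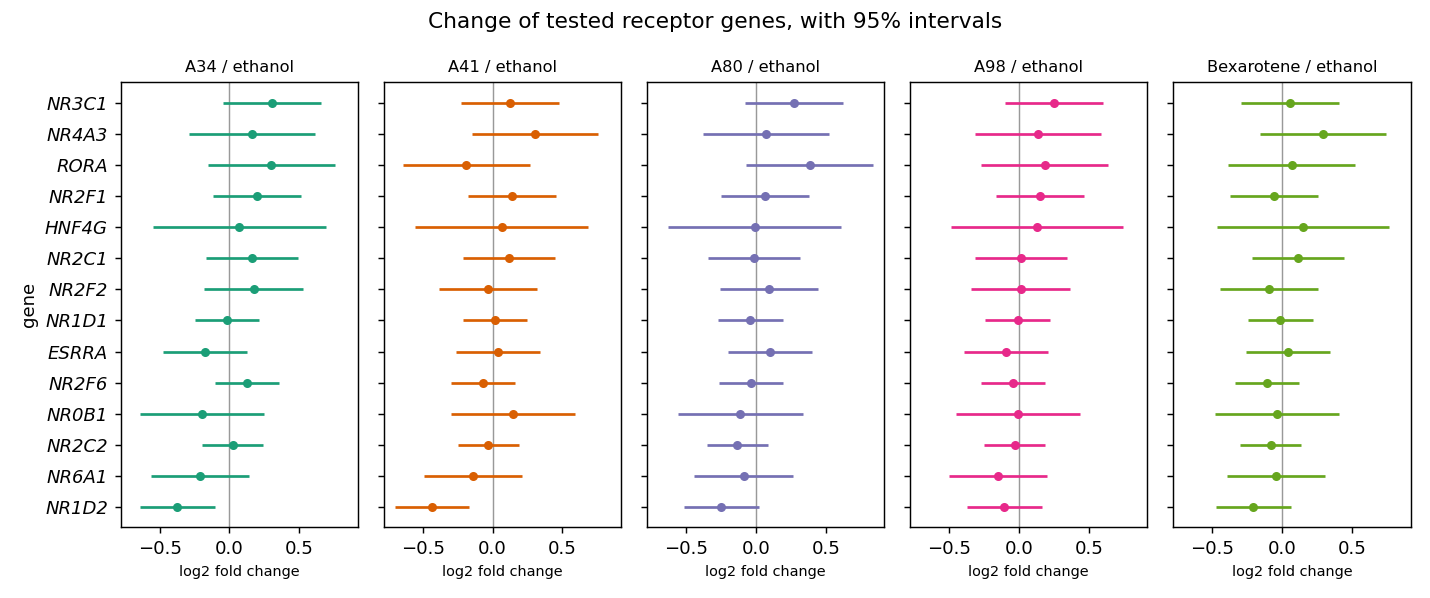
Log2 fold change against ethanol on the log2(scaled TPM + 1) scale for each of the 14 tested receptor genes, with 1 panel per rexinoid, points for estimates and bars for 95% intervals from limma. NR1D2 lies lowest, with intervals from -0.64 to -0.11 for A34 and from -0.70 to -0.17 for A41 that leave out 0 before adjustment.

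NR1D2 encodes REV-ERB beta, a haem-binding repressor of clock genes, and lies at chr3:23945286-23980617 (GRCh38, plus strand). Its scaled TPM was 18.2, 21.1 and 24.4 with A34, and 20.6, 17.8 and 22.6 with A41. It was 23.3, 22.1 and 24.2 with A80, and 23.6, 27.7 and 25.9 with A98. It was 19.4, 26.5 and 26.5 with bexarotene, against 26.3, 27.7 and 29.1 with ethanol. All libraries of A34, A41 and A80 lay below all ethanol libraries, while A98 and bexarotene overlapped ethanol. Sets of 3 libraries that lie all above or all below ethanol were common: 16.6% of all genes with A34, 15.9% with A41 and 16.4% with A80. The log2 fold change of NR1D2 was -0.43 with A41 (SE 0.13, limma adjusted p 0.1808) and -0.37 with A34 (SE 0.13, limma adjusted p 0.3008). It was -0.25 with A80 (95% interval -0.51 to 0.02), -0.20 with bexarotene and -0.10 with A98. Without bexarotene replicate 1, the lowest of that group and 1 of the libraries rich in ribosomal RNA, the bexarotene value was -0.06. Without the 3 libraries rich in ribosomal RNA, the A41 value was -0.34 (limma adjusted p 0.4202). The mean of the 5 rexinoids gave -0.27 (SE 0.10, limma adjusted p 0.3458).

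NR1D1 encodes REV-ERB alpha, the closest relative of REV-ERB beta, and lies at chr17:40092793-40100589 on the minus strand. Its scaled TPM was 19.9, 17.1 and 16.5 with A34, 16.8, 21.9 and 16.5 with A41, and 19.4, 15.9 and 17.5 with A80. It was 19.4, 16.7 and 17.8 with A98 and 19.2, 17.4 and 17.2 with bexarotene, against 18.6, 17.6 and 17.9 with ethanol. Every rexinoid group overlapped ethanol, and the group means lay between 17.6 and 18.4. Its coefficient of variation over all 18 libraries was 8.35%, and the 95% interval for the mean of the 5 rexinoids against ethanol ran from -0.19 to 0.17 on the log2 scale. The difference between the responses of NR1D2 and NR1D1 was not tested. NR1D1 overlaps THRA, the thyroid hormone receptor alpha gene on the opposite strand, over 1075 bases, and NR1D2 overlaps NKIRAS1 over 1306 bases. THRA averaged 6.77 and NKIRAS1 13.1 scaled TPM. Since the strand setting of the quantification is not stated, reads from the shared bases cannot be told apart.

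The start-site windows of this pair are shown because the pair holds the gene of smallest p and its nearest relative. Each runs from 250 bases before to 50 bases after a RefSeq start site (GRCh38.p14), is written 5′ to 3′ on the gene's own strand, and has in capitals the E-box letters CACGTG, to which CLOCK and BMAL1 bind. The windows are chr17:40100540-40100839 (minus strand) for NR1D1 and chr3:23945036-23945335 and chr3:23945871-23946170 (plus strand) for NR1D2.
NR1D1: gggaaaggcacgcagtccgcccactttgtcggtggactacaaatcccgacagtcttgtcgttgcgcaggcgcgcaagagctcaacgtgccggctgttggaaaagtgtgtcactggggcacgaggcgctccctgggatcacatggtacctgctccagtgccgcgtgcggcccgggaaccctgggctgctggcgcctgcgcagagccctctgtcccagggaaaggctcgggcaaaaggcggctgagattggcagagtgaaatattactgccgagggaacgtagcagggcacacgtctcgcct
NR1D2 upstream start: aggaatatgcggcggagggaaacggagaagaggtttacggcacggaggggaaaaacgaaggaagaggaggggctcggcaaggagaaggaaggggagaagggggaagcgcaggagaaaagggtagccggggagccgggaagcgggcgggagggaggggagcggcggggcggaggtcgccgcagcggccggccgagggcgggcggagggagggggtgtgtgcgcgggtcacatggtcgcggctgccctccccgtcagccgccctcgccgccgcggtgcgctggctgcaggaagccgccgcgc
NR1D2 downstream start: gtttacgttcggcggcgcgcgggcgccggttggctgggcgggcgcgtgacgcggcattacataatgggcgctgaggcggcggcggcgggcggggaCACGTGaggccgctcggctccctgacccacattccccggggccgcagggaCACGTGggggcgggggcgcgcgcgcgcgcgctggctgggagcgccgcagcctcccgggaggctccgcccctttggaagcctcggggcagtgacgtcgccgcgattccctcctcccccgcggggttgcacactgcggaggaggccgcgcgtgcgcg
The NR1D1 window and the upstream NR1D2 window held neither CACGTG nor AGGTCA, the core element of these receptors, on either strand. The downstream NR1D2 window held CACGTG 2 times, 155 and 105 bases before its start site. The 3 windows held 24, 36 and 50 CpG dinucleotides, against a median of 14 in all windows of that length. Of the 30 receptor genes, 27 had such windows, 64 in all. CACGTG was in 12.5% of those 64, against 7.26% of all 35116 windows, and AGGTCA in 14.1%, against 13.8%. Windows of the same gene can overlap, as those of ESR2 and of PGR with CACGTG do, so a match can count more than once. A match is a run of letters and not a measured binding site.

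RORA, the activating counterpart of the REV-ERBs, lies at chr15:60488284-61229302 on the minus strand. Its scaled TPM was 18.8, 14.5 and 10.8 with A34, 13.1, 9.36 and 7.99 with A41, and 14.9, 13.2 and 18.3 with A80. It was 15.9, 11.6 and 12.4 with A98 and 11.4, 16.1 and 9.56 with bexarotene, against 12.3, 11.5 and 10.7 with ethanol. On scaled TPM the A80 libraries lay above all ethanol libraries, where 16.4% of all genes lay wholly above or below. On the level from coverage described below, A80 replicate 3 did not. The A41 libraries reached both the lowest value of all and a value above ethanol. Against ethanol, A80 gave a log2 fold change of 0.39 (SE 0.21, limma adjusted p 0.6072). Its paralog RORB, known from retina and brain, was below the level for testing, with 0.138, 0.550 and 0.772 TPM as the lowest, median and highest of 18 libraries.

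NR3C1 encodes the glucocorticoid receptor, at chr5:143277931-143435512 on the minus strand, and had the highest level of the 30. Its scaled TPM was 54.9, 38.3 and 34.2 with A34, 44.7, 31.9 and 34.7 with A41, and 50.2, 39.6 and 34.1 with A80. It was 44.1, 37.9 and 38.9 with A98 and 31.4, 36.6 and 37.0 with bexarotene, against 34.9, 32.4 and 33.4 with ethanol. Replicate 1 was the highest library in each of the 4 coded groups, and only the A98 libraries all lay above ethanol. With A98, 16.7% of all genes lay wholly above or below ethanol in this way. The log2 fold change with A34 was 0.30 (SE 0.17, limma adjusted p 0.5383), and it was 0.11 without A34 replicate 1. NDRG1, a gene of the cellular stress and hypoxia response, was at 805, 308 and 187 scaled TPM with A34 and at 774, 307 and 221 with A80, against 97.5, 105 and 76.2 with ethanol. NDRG1 was highest in replicate 1 of each of the 4 coded groups, as NR3C1 was. The other groups went the opposite way. With bexarotene NDRG1 was highest in replicate 1, at 277, where NR3C1 was lowest of its group at 31.4. With ethanol it was highest in replicate 2, at 105, where NR3C1 was lowest of its group at 32.4. The part of NDRG1 in the NR3C1 values was not tested. NR3C2, the mineralocorticoid receptor gene, was just outside the level for testing, with 2 libraries at 1 TPM and a median of 0.775 TPM.

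The COUP-TF genes NR2F1 and NR2F2 encode orphan receptors of neural crest, vessel and mesenchyme development. NR2F1, at chr5:93583222-93594611, had a scaled TPM of 38.5, 27.1 and 30.9 with A34, 37.1, 24.3 and 31.5 with A41, and 32.5, 25.8 and 29.01 with A80. It had 29.2, 34.1 and 29.3 with A98 and 27.8, 23.2 and 29.1 with bexarotene, against 29.6, 26.4 and 27.1 with ethanol. Every rexinoid group overlapped ethanol. NR2F2, at chr15:96325938-96340263, averaged 19.3 ± 4.2 scaled TPM with A34, 16.4 ± 0.81 with A41, 18.5 ± 6.1 with A80, 16.9 ± 0.59 with A98 and 15.6 ± 0.82 with bexarotene, against 16.7 ± 0.67 with ethanol (SD, n = 3 each). The wide spread of 2 groups came from replicate 1, at 24.1 with A34 and 25.4 with A80, the libraries in which NDRG1 was highest. The next highest NR2F2 library of any group was at 17.6. NR2F6, a related repressor at chr19:17231883-17245940, had 14.6, 14.98 and 13.3 scaled TPM with A34, 13.1, 12.6 and 11.4 with A41, 11.9, 11.8 and 14.4 with A80, and 11.4, 12.97 and 13.5 with A98. It had 13.6, 11.3 and 11.3 with bexarotene, against 13.1, 14.3 and 11.6 with ethanol, and every rexinoid group overlapped ethanol. The antisense genes NR2F1-AS1 and NR2F2-AS1 share 2428 and 1424 bases with their receptor genes and averaged 7.07 and 1.98 scaled TPM.

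**Figure D3:**
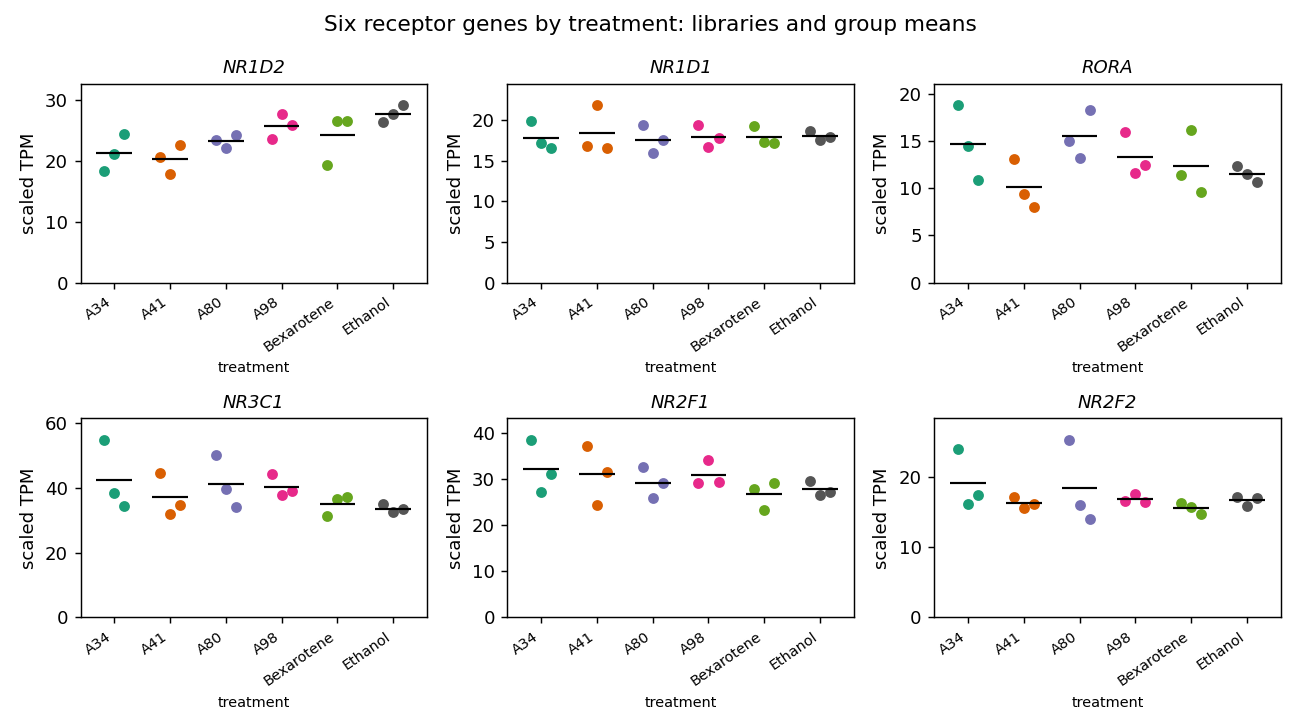
Scaled TPM of NR1D2, NR1D1, RORA, NR3C1, NR2F1 and NR2F2 by treatment, with 1 point per library and a bar at the mean of 3, on axes that start at 0. All NR1D2 libraries of A34, A41 and A80 lie below the ethanol libraries, at 26.3 to 29.1, while NR1D1 group means stay between 17.6 and 18.4.

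ESRRA was the only oestrogen-family gene above the level for testing. It encodes oestrogen-related receptor alpha, an orphan receptor that drives genes of mitochondrial energy metabolism, and lies at chr11:64305497-64316743. Its scaled TPM was 14.6, 16.8 and 18.8 with A34, 15.8, 22.3 and 20.7 with A41, and 18.4, 18.9 and 24.4 with A80. It was 18.4, 18.9 and 16.0 with A98 and 21.2, 19.6 and 17.9 with bexarotene, against 20.6, 16.3 and 20.2 with ethanol. The groups overlapped ethanol throughout. ESRRA shares 284 bases with TRMT112, on the opposite strand, which averaged 146 scaled TPM. The oestrogen receptor genes were low, with medians of 0.0959 TPM for ESR1 and 0.266 for ESR2. Both lie in part over long neighbours on the opposite strand, ESR1 over SYNE1 and ESR2 over SYNE2, at 8.64 and 4.14 scaled TPM. ESRRB had a median of 0.156 TPM and ESRRG of 0.365, and neither reached 1 TPM in any library.

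The testicular receptors are orphan receptors that repress embryonic globin genes. On scaled TPM, NR2C2 averaged 20.3, like ESRRA at 18.9, and NR2C1 was far lower at 3.30. On the level from coverage described below this order did not hold. There NR2C2 was at 1.94, far below ESRRA at 12.2 and near NR2C1 at 1.26. NR2C2, at chr3:14947584-15053600, had 23.5, 22.8 and 17.9 scaled TPM with A34, 20.7, 18.8 and 21.8 with A41, and 19.5, 18.6 and 18.7 with A80. It had 19.5, 18.6 and 23.4 with A98 and 18.7, 19.5 and 20.9 with bexarotene, against 20.4, 21.6 and 20.6 with ethanol. The A80 libraries lay below all ethanol libraries, where 16.4% of all genes lay wholly above or below, and the other groups overlapped ethanol. NR2C1 had group means between 3.06 and 3.56. NR2C2 shares 11141 bases with MRPS25 and 841 with FGD5-AS1, on the opposite strand, at 11.8 and 56.3 scaled TPM.

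NR0B1 encodes DAX1, a corepressor without a DNA-binding domain, known from adrenal and gonad, and lies at chrX:30304206-30309390. It averaged 3.53 ± 0.76 scaled TPM with A34, 4.79 ± 1.4 with A41, 3.84 ± 1.0 with A80, 4.17 ± 0.84 with A98 and 4.06 ± 0.87 with bexarotene, against 4.14 ± 0.28 with ethanol (SD, n = 3 each). Its relative NR0B2, which encodes the liver corepressor SHP, was above 0 in 1 library only, at 0.0134 TPM. NR0B2 lies wholly within the span of NUDC, which averaged 151 scaled TPM. NR6A1, the germ cell nuclear factor gene, had group means between 1.03 and 1.34.

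NR4A3, the immediate early gene that encodes the NOR1 receptor, was near the level for testing. Its scaled TPM was 1.56, 0.477 and 0.535 with A34, 1.37, 0.975 and 0.666 with A41, and 0.566, 0.827 and 0.698 with A80. It was 1.02, 0.577 and 0.738 with A98 and 1.18, 0.981 and 0.769 with bexarotene, against 0.651, 0.556 and 0.617 with ethanol. The A41 and bexarotene libraries lay above all ethanol libraries, where 15.9% and 12.8% of all genes lay wholly above or below them. NR4A3 passed the filter through rexinoid libraries alone, 1 each of A34, A41, A98 and bexarotene, and no ethanol library reached 1 TPM. Its place above ethanol is therefore not independent of the filter. The log2 fold change was 0.30 with A41 (SE 0.21, limma adjusted p 0.6536) and 0.29 with bexarotene (SE 0.21, limma adjusted p 0.9048), and it was 0.17 with A41 without A41 replicate 1. With a pseudocount of 0.1 in place of 1, which shrinks low genes less, the values were 0.59 with A41 and 0.59 with bexarotene (limma adjusted p 0.6549 and 0.908). HNF4G, a hepatocyte nuclear factor gene, averaged 0.712 scaled TPM, with 0.247, 0.587 and 1.62 as the lowest, median and highest library. Its libraries at 1 TPM or more were 1 each of A34, A41, A98 and bexarotene.

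The other 16 receptor genes stayed below the level for testing and received no test. None had a median above 0.775 TPM, and NR3C2 was the only one to reach 1 TPM in any library. The bile acid receptor gene NR1H4 was above 0 in 6 libraries, with at most 0.0218 TPM. The xenobiotic receptor genes NR1I2 (PXR) and NR1I3 (CAR) had medians of 0.0219 and 0.265 TPM, and NR1I3 was at 0 in 3 libraries. HNF4A, the liver and gut counterpart of HNF4G, had a median of 0.0379 and a highest library of 0.456. The steroidogenic receptor gene NR5A1 had a median of 0.00814 and its relative NR5A2 of 0.164. The progesterone receptor gene PGR had a median of 0.0220. The neural stem cell receptor gene NR2E1 had a median of 0.0201, and the retinal gene NR2E3 of 0.184. The tables hold no counts, so no limit for a value of 0 can be given.

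**Figure D4:**
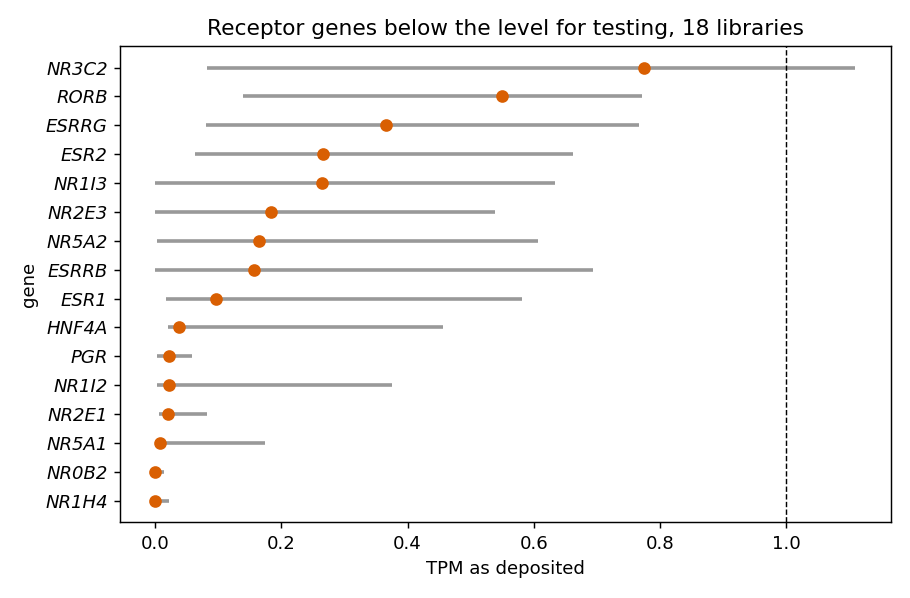
TPM as deposited for the 16 receptor genes below the level for testing, with a point at the median of 18 libraries and a line between the lowest and the highest library. The dashed line marks 1 TPM, which NR3C2 alone crosses, with a highest library of 1.11.

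The coded rexinoids were then set against bexarotene and against each other at the same dose and time, which made 10 pairs, with p-values adjusted over genes within each pair and not over pairs. Against bexarotene, limma called 0 of 14 with A34 (0% of all genes), A41 (0.115%), A80 (0%) and A98 (0.00547%). Between coded compounds it called 0 of 14 for A41 against A34 (0.0712% of all genes), A41 against A80 (0.126%), A41 against A98 (0.131%), A80 against A34 (0%), A98 against A34 (0.00547%) and A98 against A80 (0.00547%). At an unadjusted p below 0.05 there were 5 differences over the 10 pairs, in 3 genes, with 0 or 1 of 14 in each pair, against 3.55% to 7.95% of all genes. That is near the background and is no result about the receptors. RORA gave a log2 difference of -0.58 for A41 against A80 (95% interval -1.03 to -0.12, limma adjusted p 0.5223), and -0.49 for A41 against A34 (limma adjusted p 0.6129). NR1D2 gave -0.33 for A41 against A98 (95% interval -0.60 to -0.06, limma adjusted p 0.6031) and 0.27 for A98 against A34 (limma adjusted p 0.978). NR2F6 gave 0.23 for A34 against bexarotene (95% interval 0.01 to 0.46, limma adjusted p 0.9139). The outermost ends of the intervals over all members and pairs were -1.03, for RORA with A41 against A80, and 0.79, for NR0B1 with A41 against A34. The size of difference left out varied by gene, and the NR1D1 intervals stayed between -0.26 and 0.28. These intervals are on the log2(scaled TPM + 1) scale too, and do not bound the fold changes of genes near 1 TPM.

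The tables also hold coverage, the mean read depth over a gene, and the order of the receptors depends on which column is read. Within a library the ratio of coverage to FPKM had an upper limit, and it is given here as a percentage of that limit. It exceeded 99% for 97.5% of 5150 tested genes with 1 transcript, and for 2.36% of 12950 tested genes with more. NR1D1, with 1 transcript in GENCODE 29, had a ratio of 100%. RORA, with 14 transcripts of 373 to 10844 bases, had a ratio of 3.03%, NR2C2 9.54%, NR3C1 16.3% and HNF4G 4.68%. A level made from coverage and brought to the same scale put NR1D1 first at 17.98 and NR2F1 second at 17.3. It put ESRRA at 12.2, NR2F6 at 11.5, NR2F2 at 11.3, NR1D2 at 8.70 and NR3C1 seventh at 6.20. RORA was at 0.359 on that scale, against 12.9 scaled TPM, and moved from place 8 to place 13.

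**Figure D5:**
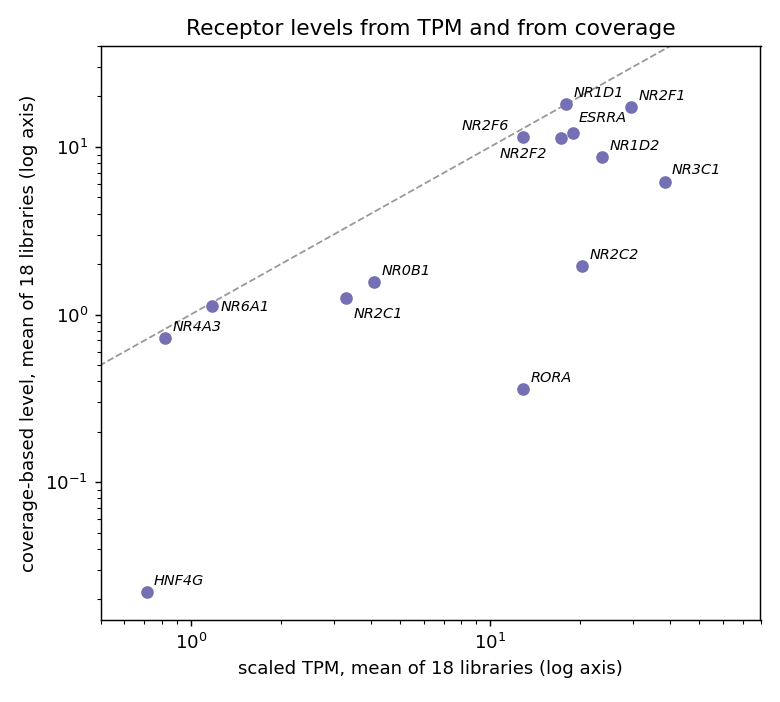
Mean level over 18 libraries from coverage (vertical, log axis) against scaled TPM (horizontal, log axis) for the 14 tested receptor genes, with the line of equal values dashed. NR1D1, NR6A1, NR4A3 and NR2F6 lie at or near the line, and RORA, NR2C2, NR3C1 and HNF4G lie far below it.

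The ratio of RORA also differed between libraries, from 0.687% to 3.70%. It was lowest in bexarotene replicate 2, the library with the highest RORA of its group at 16.1 scaled TPM, where the coverage-based level was 0.111. In A80 replicate 3, at 18.3 scaled TPM, the ratio was 1.71%. On the coverage-based level, RORA was 0.384, 0.227 and 0.244 with A41 and 0.552, 0.407 and 0.313 with A80, against 0.335, 0.340 and 0.334 with ethanol. A80 replicate 3 lay below all ethanol libraries there, so A80 overlapped ethanol. The log2 ratio of the group means of A41 and A80 was -0.57, against -0.61 on scaled TPM. The fit on the coverage-based level gave -0.15 (SE 0.09, limma adjusted p 0.7125), since its pseudocount of 1 is larger than these levels and shrinks the difference. For NR1D2 with A41 against ethanol the coverage-based log2 fold change was -0.39 (SE 0.11, limma adjusted p 0.1742), and with A34 it was -0.34 (limma adjusted p 0.2798). This alternative was chosen after seeing the data.

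Known target and partner genes of the receptors were counted in 9 lists, all chosen with earlier results of these data known, and at most 1 gene of a list was called in any comparison with ethanol. Among 14 tested clock genes regulated by REV-ERB and ROR, 0 were called with any rexinoid, with a median log2 fold change of 0.05 for the mean of the 5, against -0.0032 over all genes tested. At an unadjusted limma p below 0.05 there were 4 of 14 for that mean, against 10.3% of all genes. BHLHE40, a clock repressor that is also a stress and hypoxia gene, averaged 182 scaled TPM with A34, 186 with A41, 189 with A80, 147 with A98 and 153 with bexarotene, against 103 with ethanol. It had a limma adjusted p of 0.08814 for the mean of the 5, or 0.03366 without A34 replicate 3. With a replicate block it passed the threshold, as given in the last section. Its highest library was replicate 1 in all 6 groups, at 229 with A34 and 244 with A80, the libraries in which NDRG1 was highest, and the part of NDRG1 was not tested. NFIL3, CLOCK and NPAS2 had adjusted p values of 0.3844, 0.439 and 0.4853 from limma in that comparison.

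Of 15 tested glucocorticoid receptor targets, 0 were called, with a median of 0.24 for the mean of the 5, where 0.203% of all genes were called. At an unadjusted limma p below 0.05 there were 6 of 15 in that comparison, against 10.3% of all genes. The count ran from 2 with bexarotene to 7 with A34, against 5.75% and 10.7% of all genes. Whether the list as a set differed from other genes was not tested. ANGPTL4, also a PPAR and hypoxia target, gave 2.03 on the log2 scale for the mean of the 5 (SE 0.47, limma adjusted p 0.1233). With a replicate block it passed the threshold, as given in the last section. Without a block, MT1X and MT2A had limma adjusted p values of 0.3267 each. The adjusted p of SGK1 was 0.377 in the same limma comparison. Of 13 tested oestrogen-related receptor targets 0 were called, with a median of -0.02, and IDH3A, CYCS, TFAM and UQCRC1 came nearest, with adjusted p values from 0.3865 to 0.526. Only 4 of 14 FXR, PXR and CAR targets and 1 of 13 HNF4 targets passed the filter, and 0 were called. The 5 tested of 14 NR5A steroidogenic targets gave a median of 0.17, and the 7 tested of 12 NR2E1 and neural stem cell genes a median of 0.03, each with 0 called.

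Of 9 tested oestrogen receptor targets, 5 had an unadjusted limma p below 0.05 with A34, 3 with A80, 2 with bexarotene and 1 each with A41 and A98. The shares of all genes were 10.7%, 9.41%, 5.75%, 10.4% and 6.63%. Among the 9, NRIP1, a corepressor of nuclear receptors that retinoids also regulate, was called with A41 and no other rexinoid. It was at 50.8, 45.1 and 43.3 scaled TPM with A41, against 24.8, 30.2 and 27.2 with ethanol, and the groups did not overlap, as for 15.9% of all genes with A41. Its log2 fold change was 0.74 (SE 0.09, limma adjusted p 0.000289). NRIP1 was also called for A41 against bexarotene, at 0.51 (limma adjusted p 0.03337), at 0.53 against A34 (limma adjusted p 0.03189), at 0.62 against A80 (limma adjusted p 0.006561) and at 0.58 against A98 (limma adjusted p 0.0113). The call against bexarotene was lost without any 1 of the 6 libraries of that pair, with limma adjusted p values from 0.05737 to 0.1351, while the log2 fold change stayed between 0.44 and 0.56. The call against A34 was lost without A34 replicate 2 or 3 or any 1 of the 3 A41 libraries, with limma adjusted p values from 0.08157 to 0.1338 and log2 fold changes from 0.47 to 0.58. The call against A98 was lost without A41 replicate 1 or any 1 of the 3 A98 libraries, with limma adjusted p values from 0.05029 to 0.0757 and log2 fold changes from 0.51 to 0.60. Of 8 tested NR2F targets and partners, NRP2, a neuropilin known as a target of the NR2F2 receptor in mouse lymphatic endothelium, was called with A41. It was at 150, 135 and 128 scaled TPM with A41, against 68.3, 58.9 and 58.9 with ethanol, a log2 fold change of 1.14 (SE 0.16, limma adjusted p 0.001403). All libraries of the other rexinoids, at 72.8 to 121, also lay above ethanol. Between 12.8% and 16.7% of all genes lay wholly above or below ethanol with those compounds. NRP2 was not called for A41 against any other rexinoid. Without the 3 libraries rich in ribosomal RNA the log2 fold change of NRP2 was 1.11 and its limma adjusted p 0.05399. NR2F1 and NR2F2 themselves overlapped ethanol with A41.

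The tested receptors differed in how much they varied between libraries of a group. The residual SD on the log2 scale ran from 0.12 for NR2C2 and 0.13 for NR2F6 to 0.28 for RORA and 0.36 for HNF4G, against a median of 0.21 over all genes tested. Among the 1000 genes nearest in mean level, 88.3% had a smaller SD than RORA and 87.1% than NR3C1, while 4.5% had a smaller SD than NR6A1 and 35.6% than NR1D1. In bulk RNA a lower level cannot be told apart from fewer cells that hold the transcript.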

How the data were processed

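Total RNA of U87 cells was depleted of ribosomal RNA, sheared, primed at random and sequenced as read pairs, per the labels' protocols. The submitters' processing notes name STAR, StringTie, MultiQC and GRCh38. Tool versions, annotation release and strand setting: not given in the sources used here. For each library the authors deposited 1 StringTie table with TPM, FPKM and coverage (a signal, mean read depth) per gene, per the file headers. TPM and FPKM were normalised by the authors, and no counts were used. The A98 tables are named A90, and some table numbers differ from the titles. Groups and replicates follow the titles.

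Each library's TPM was scaled by median of ratios (factors 0.417 to 1.20), taken over the 16349 tested genes above 0 in every library. The 18269 genes at 1 TPM or more in 3 or more libraries were tested on log2(scaled TPM + 1) with limma 3.58.1 in R 4.3.3, with a trend, 18 libraries, 6 groups and 12 residual degrees of freedom. All p-values are two-sided, adjusted by Benjamini-Hochberg over the genes tested in a comparison, with 0.05 as threshold. Fold changes understate the change of low genes. The fit was checked on simulated data with independent noise between libraries. The planted changes were larger than the receptor estimates here. The check therefore does not cover changes of their size or correlated libraries. Every member is named, with libraries given for the 6 of highest level and the 6 of smallest F-test p. The libraries of NR4A3, and single libraries of NR2F2, are given outside that rule. Members and lists were chosen with earlier results of these data known. Aligned bases, 1.31 to 3.89 gigabases, are the upper limit of coverage over FPKM and limit the precision of low genes most. Deviations from the group means correlated over 0.1 in 11 of 45 same-numbered pairs of libraries (median r 0.0287) and in 7 of 90 others. The share was larger among same-numbered pairs, but the labels do not tie the numbers to a shared culture, day or batch. The fit therefore had no block, and fits with a block are given in the last section. No 2 libraries held identical values. Alternatives covered scaling, pseudocount, filter, FPKM, moderation, libraries, samples, replicate block and coverage. Figures were drawn with matplotlib 3.10.9.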

Additional observations from a re-analysis of the deposited data

How the results depend on the processing

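No receptor gene was called in any of the 17 comparisons under any alternative: the count stayed at 0 of the tested members with other scalings, pseudocounts, filters, FPKM, moderation, with each library left out in turn (0 to 0), and with the 3 libraries of high ribosomal share removed. Counts over all genes moved more, between 4 and 197 with A41 against ethanol. With a replicate block from the titles 0 members were called and the counts over all genes were 166 with A34, 197 with A41 and 117 with A80 against ethanol, against 15, 138 and 8 without it. With a block from the numbers in table names they were 57, 116 and 51. The numbers pair no cultures in the labels. For the mean of the 5 rexinoids, BHLHE40 (limma adjusted p 0.0004949 and 0.006816) and ANGPTL4 (0.0002849 and 0.003076) passed under the blocks from titles and tables. NR1D2 with A98 against ethanol turned to 0.0679 on TPM as deposited, where the median of all genes was 0.15, against -0.10 in the fit as reported and -0.16 to -0.05 over the other alternatives. TPM as deposited also moved the median of all genes by -0.27 with A41, where NR1D2 was -0.75, NRIP1 0.41 and NRP2 0.80, all with adjusted p 0.8228 from limma, so none of these was called. The fold change of NR1D2 with A41 lay between -0.75 and -0.34 over 20 alternatives, with limma adjusted p from 0.07959 to 0.8228. RORA with A41 against A80 lay between -0.95 and -0.43, apart from -0.15 on the coverage-based level, where the pseudocount shrinks it. Fits of the groups compared alone gave no value for the mean of the 5 or the F test. NRIP1 with A41 against ethanol lost its call in that fit of 2 groups (limma adjusted p 0.07003). Against bexarotene it lost its call in 12 of 20 alternatives, against A34 in 11, against A98 in 8 and against A80 in 3. Genes near 1 TPM and genes with low coverage for their TPM are the least certain.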
